A study of Mus musculus with 19 samples.

Results

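Krt7, Krt8, Krt18 and Krt19 encode the keratins of simple epithelia, the single-layered sheets that line organs and cover the early embryo. They were followed through the step from mouse embryonic stem cells (mESC) to epiblast-like cells (EpiLC). They are 4 of the 54119 genes into which the deposited transcript values were summed, and 4 of the 54 genes whose symbol is Krt and a number. The set was picked from measured values, because Krt19 was far higher in EpiLC and differed between the cell lines. EpiLC against mESC within a genotype, XX against XY, and the gap between the transitions of both lines are therefore given for these 4 genes as a description. Calls in these comparisons are counted for scale only, and nothing is read from them. The tests that are read for the 4 genes are those of Tet3-/- against XX cells.

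Keratins are the intermediate filament proteins of epithelial cells. A filament is built from pairs of an acidic type I keratin and a basic type II keratin, and a chain without a partner is usually degraded. Krt8 and Krt7 are type II, and Krt18 and Krt19 are type I. Krt8 and Krt18 are the first keratins of the embryo and mark its outer layer, the trophectoderm. Krt19, which joins them in many ducts and simple linings, is a keratin that lacks most of the usual tail. Krt7 marks ducts, mesothelium and trophoblast. Naive mESC resemble the inner cells of the early embryo, and EpiLC resemble the epiblast after implantation, which is itself an epithelium.

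RNA was sequenced from 19 libraries of 6 groups. XX mESC (3 libraries) and XX EpiLC (3) were wild type and came from the LF2 line, Tet3-/- mESC (4, numbered #1 to #4) and Tet3-/- EpiLC (3, numbered #1, #3 and #4) were XX mutants of the same line, and XY mESC (3) and XY EpiLC (3) were wild type and came from the E14 line. Sex and cell line thus cannot be told apart. All mESC were kept in N2B27 with LIF and inhibitors of GSK3 and of MEK1/2 for at least 3 passages, and EpiLC were made from such cells over 5 days with FGF5 and Activin A and no LIF. Tet3 encodes a dioxygenase that oxidises 5-methylcytosine. The labels do not say what the Tet3 lesion is, whether the numbered mutants are clones, or whether replicates are separate cultures, so p-values measure only the spread between these libraries. Values are TPM (transcripts per 1000000, which corrects for transcript length), and the depth of the libraries is unknown.

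The proteins share a short conserved motif at the end of the central helical rod. It is shown because the 4 genes can be lined up there base by base. The 27 coding bases are given in lower case, with capitals at the positions that are not the same in all 4 genes (9 of 27).
Krt8: acctaccgcAAGCtgctggaggGGGAG
Krt7: acctaccgcAAGCtgctggaggGCGAG
Krt18: acctaccgcCGCTtgctggaggATGGA
Krt19: acctaccgcAGCCtgctggaggGCCAG
These bases lie on GRCm38 (GENCODE M21) at chr15:101997861-101997887 on the minus strand for Krt8 (exon 7 of 9), chr15:101423456-101423482 on the plus strand for Krt7 (exon 7 of 9), chr15:102031482-102031508 on the plus strand for Krt18 (exon 6 of 7) and chr11:100140955-100140981 on the minus strand for Krt19 (exon 6 of 6). Krt7 and Krt8 shared 26 of 27 bases, while Krt8 and Krt18, the classic pair, shared 19. What follows the stretch differs far more. After it the coding sequence ran on for 86 codons in Krt8, 64 in Krt7, 43 in Krt18 and 13 in Krt19.

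Krt8 (ENSMUSG00000049382.10, chr15:101996698-102004482, minus strand) and Krt18 (ENSMUSG00000023043.7, chr15:102028180-102032027, plus strand) start 23698 bases apart and point away from each other, so the type I gene Krt18 lies in the type II cluster. Krt7 (ENSMUSG00000023039.17, chr15:101411043-101430313, plus strand) lies in the same cluster, 566385 bases from Krt8. Between them stand 23 other keratin genes, and the highest value of any of these in any library was 0.233 TPM (Krt5). Krt19 (ENSMUSG00000020911.14, chr11:100140810-100148665, minus strand) lies in the type I cluster, 4882 bases from Krt15.

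The stretches upstream of Krt7, Krt8 and Krt18 were taken from RefSeq (GRCm38.p6), which matched 3 of the 4 genes. They are shown because the genes were all higher in EpiLC than in mESC and yet have unlike upstream sequence. Each begins 250 bases before the RefSeq start and stops before the first base that GENCODE annotates as an exon of a coding transcript. Capitals mark a GC box (GGGCGG) or an AP-2 motif (GCCNNNGGC), on either strand.
Krt8: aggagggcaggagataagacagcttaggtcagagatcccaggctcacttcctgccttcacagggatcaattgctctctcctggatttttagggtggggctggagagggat
Krt18: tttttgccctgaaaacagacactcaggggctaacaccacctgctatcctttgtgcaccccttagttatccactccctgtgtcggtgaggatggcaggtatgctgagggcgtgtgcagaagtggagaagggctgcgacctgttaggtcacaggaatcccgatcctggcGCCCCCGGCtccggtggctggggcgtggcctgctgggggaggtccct
Krt7: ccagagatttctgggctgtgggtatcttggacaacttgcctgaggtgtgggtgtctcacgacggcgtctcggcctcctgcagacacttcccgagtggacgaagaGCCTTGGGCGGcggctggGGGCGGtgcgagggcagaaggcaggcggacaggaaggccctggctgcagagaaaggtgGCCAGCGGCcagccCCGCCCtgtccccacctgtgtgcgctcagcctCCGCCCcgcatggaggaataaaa
They span chr15:102004483-102004592 (minus strand), chr15:102027966-102028179 (plus strand) and chr15:101412153-101412401 (plus strand; this stretch lies inside the GENCODE span of Krt7). Over the whole 300-base windows, Krt7 held 4 GC boxes and 2 AP-2 matches, 1 of which overlapped a GC box. Krt18 held 1 AP-2 match. Krt8 held neither, but had a pair of overlapping TATAAA matches that begin at -3 and -1 from its RefSeq start. That start lies inside the GENCODE span of Krt8, so these matches are not upstream of the GENCODE start. Of all 32851 windows of this length, 35.7% held a GC box, 16.6% an AP-2 match and 13.6% TATAAA. AP-1 (TGANTCA), TEAD (GGAATG) and CCAAT, also searched on both strands, had no match in any of the 3 windows and stood in 7.8%, 14.7% and 37.4% of all windows. CpG dinucleotides numbered 21 in the Krt7 window, 17 in Krt18 and 6 in Krt8, against a median of 7. A match is a string of letters, not a measured site.

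Several libraries stood apart. On the first principal component of mESC libraries, computed from tested genes other than keratins (43.3% of the variance), XX mESC 2 scored -9.99 against 58.7 and 38.4 for XX mESC 1 and 3, and Tet3-/- mESC #2 and #3 (4.90 and 2.40) scored below #1 and #4 (30.0 and 14.2). Among Tet3-/- EpiLC, #3 had a median-of-ratios size factor of 1.34 against 0.759 and 0.658 in #1 and #4, so its TPM values ran higher than theirs over most genes. Values that moved most when one of these libraries was left out are given both ways. As a whole group, XY EpiLC had still larger size factors, 1.38, 1.68 and 1.71, against 0.866, 0.968 and 1.02 in XX EpiLC. The summed Tet3 level checks no label: it was 0.532 to 0.916 TPM in Tet3-/- mESC and 0.536 to 1.06 in XX mESC, and 0.693 to 1.42 in Tet3-/- EpiLC and 1.21 to 1.90 in XX EpiLC, and the groups overlap in both states.

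Krt8, the type II keratin that pairs with Krt18, was measured at 9.33, 16.8 and 12.5 TPM in XX mESC, at 16.1, 10.4 and 20.0 in XY mESC, and at 9.77, 7.41, 7.30 and 9.37 in Tet3-/- mESC #1 to #4. In EpiLC it was at 138, 154 and 166 TPM in XX, at 40.3, 44.1 and 40.4 in XY, and at 139, 354 and 98.2 in Tet3-/- #1, #3 and #4. Every EpiLC library was above every mESC library, and XY EpiLC lay below all the LF2 EpiLC. The mean was 11.9 times as high in EpiLC as in mESC in XX, 2.69 times in XY and 23.3 times in Tet3-/- (14.0 times without #3).

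Krt18, the type I partner, was at 20.4, 4.95 and 27.2 TPM in XX mESC, at 3.72, 10.5 and 4.12 in XY mESC, and at 12.0, 4.35, 2.56 and 10.2 in Tet3-/- mESC. The EpiLC values were 227, 246 and 258 TPM in XX, 75.5, 79.0 and 80.1 in XY, and 258, 252 and 149 in Tet3-/- #1, #3 and #4. Here too every EpiLC library lay above every mESC library, and Tet3-/- #3 did not stand out. EpiLC means were 13.9 times (XX), 12.8 times (XY) and 30.2 times (Tet3-/-) those of mESC.

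Krt19, the short type I keratin, was nearly silent in mESC, at 0.816, 0.367 and 0.889 TPM in XX, 0.623, 0.525 and 0.572 in XY and 1.64, 0.926, 0.332 and 1.95 in Tet3-/-. In EpiLC it reached 75.7, 77.3 and 84.9 TPM in XX and 52.6, 229 and 53.9 in Tet3-/-, but 7.75, 7.95 and 7.26 in XY. The mean was 115 times as high in EpiLC in XX, 13.3 times in XY and 92.3 times in Tet3-/- (44.0 times without #3). XX EpiLC had 10.4 times the level of XY EpiLC. Of the 229 TPM in Tet3-/- EpiLC #3, 49.0 (21.4%) fell on Krt19-203, a processed transcript listed at 0 in every other EpiLC library.

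Krt7, the type II keratin of ducts and trophoblast, remained low throughout. It was at 0.558, 0.308 and 0.841 TPM in XX mESC, 0.0872, 0.435 and 0.0851 in XY mESC, and 1.04, 1.00, 0.358 and 0.672 in Tet3-/- mESC. EpiLC held 3.92, 4.08 and 5.63 TPM in XX, 1.09, 0.824 and 0.684 in XY, and 2.23, 3.50 and 1.66 in Tet3-/-. A retained-intron transcript (Krt7-202) carried 34.7% of the Krt7 level on average over the libraries. Krt7 is also the one member whose XX and Tet3-/- EpiLC libraries do not overlap.

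**Figure D1:**
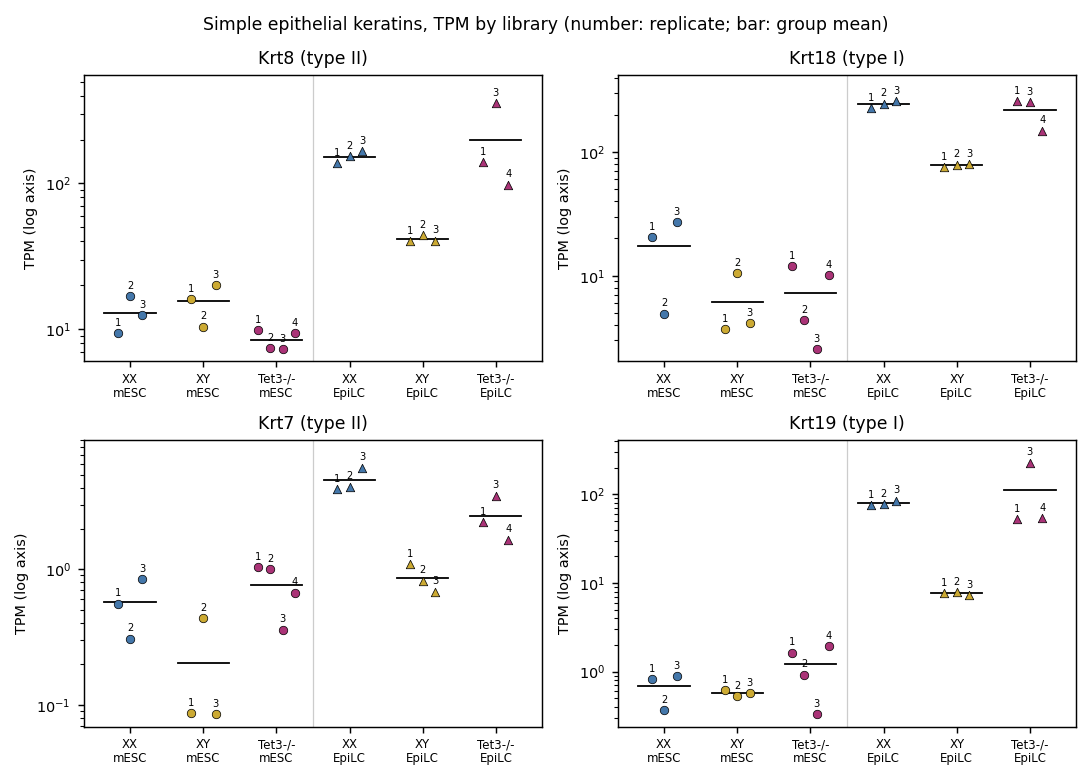
TPM (log axis) of Krt8, Krt7, Krt18 and Krt19 in each of the 19 libraries, 1 panel per gene, grouped by genotype and state. A point is a library with its replicate number and a bar is the group mean. XX EpiLC lie between 75.7 and 84.9 TPM for Krt19 and XY EpiLC between 7.26 and 7.95, and Tet3-/- EpiLC #3 is the highest library for Krt8 and Krt19.

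In every EpiLC group the order of mean TPM was Krt18, Krt8, Krt19, Krt7, at 244 ± 16.0, 153 ± 13.7, 79.3 ± 4.89 and 4.54 ± 0.948 (SD, n = 3) in XX. In XY EpiLC the same order read 78.2 ± 2.40, 41.6 ± 2.16, 7.65 ± 0.355 and 0.867 ± 0.208 (SD, n = 3), and no neighbours overlapped in either group. Tet3-/- EpiLC were looser, at 219 ± 61.1, 197 ± 137, 112 ± 101 and 2.46 ± 0.942 (SD, n = 3), where the spreads of the first 3 genes overlap. In mESC Krt8 and Krt18 were above Krt19 and Krt7 in every library, but their own order changed from library to library. For XX mESC the means of Krt8 and Krt18 were 12.9 ± 3.74 and 17.5 ± 11.4 (SD, n = 3). For XY mESC they were 15.5 ± 4.82 and 6.13 ± 3.83 (SD, n = 3), and for Tet3-/- mESC 8.46 ± 1.29 and 7.27 ± 4.53 (SD, n = 4). The libraries of both genes overlap in all 3 groups. Krt19 and Krt7 were likewise close to each other, at 0.691 ± 0.283 and 0.569 ± 0.267 in XX mESC (SD, n = 3).

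On the scale of log2(TPM + 1), where the change of a low gene comes out smaller than it is, the XX transition (EpiLC minus mESC) was 3.50 ± 0.35 (SE) for Krt8, 1.82 ± 0.22 for Krt7, 4.00 ± 0.52 for Krt18 and 5.58 ± 0.40 for Krt19. The XY transition was 1.41, 0.64, 3.60 and 2.46 in that order, and the Tet3-/- transition 4.18 ± 0.33, 0.95 ± 0.20, 4.88 ± 0.48 and 5.38 ± 0.38. Within each genotype the EpiLC libraries lay above the mESC libraries without overlap for all 4 genes, as they did for 29.2%, 44.9% and 14.9% of all tested genes in XX, XY and Tet3-/-. These differences were part of how the genes were picked, and nothing is read from their p-values. For scale, a call means an adjusted p under 0.05 in limma, and 4 of 4 members were on the higher side in each transition, where 19.2%, 41.1% and 13.6% of all 14972 tested genes were called higher in XX, XY and Tet3-/-. With median-of-ratios scaling, which sets the median gene's change near 0, those shares were 24.5%, 26.4% and 25.2%, and 12.2%, 9.36% and 21.5% called lower on the TPM scale became 25.9%, 25% and 27.2%. That scaling took the medians of all genes from 0.14, 0.54 and -0.13 to -0.02, 0.00 and 0, and the XY transition of Krt7 to 0.34, which was no longer called. In a bulk sample fewer cells that make a keratin and less of its RNA per cell cannot be told apart.

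XX minus XY in EpiLC was 1.85 for Krt8, 1.56 for Krt7, 1.63 for Krt18 and 3.21 for Krt19. All 4 were called higher, against 5.23% of all genes (17.2% with the scaling). The XX and XY EpiLC libraries did not overlap for any of them, against 9.91% of all genes separated toward higher values, and the median gene was 0.59 lower in XX on the TPM scale, with 42% of genes called lower (16.6% with the scaling). In mESC the same subtraction gave -0.24, 0.38, 1.23 and 0.09, and 0 of 4 were called, against 14.2% of genes in either direction. Without XX mESC 2 the Krt18 value was 1.91 and past the threshold, and without XX mESC 3 it was 0.79. The XX minus XY transition was 0.40 for Krt18, 2.09 for Krt8, 1.18 for Krt7 and 3.12 for Krt19. Of these the Krt18 value turned to -0.29 without XX mESC 2 and was 0.84 without XX mESC 3. With all libraries 3 of the 4 were called higher, against 3.61% of genes. These contrasts belong to the choice of the genes as well, so the calls of the 4 genes are given for scale and nothing is read from them.

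The make-up of the keratin pool changed along with its size. Summed over the 4 genes, the level was 31.6 ± 9.51 TPM in XX mESC and 480.2 ± 34.9 in XX EpiLC, 22.4 ± 2.17 in XY mESC and 128 ± 3.64 in XY EpiLC (SD, n = 3 each). Tet3-/- cells held 17.7 ± 6.66 TPM in mESC (SD, n = 4) and 452, 838 and 303 TPM in EpiLC #1, #3 and #4. Krt19 made up 16.5% ± 0.50 of the pool in XX EpiLC, 5.97% ± 0.289 in XY EpiLC (SD, n = 3 each) and 11.6%, 27.3% and 17.8% in Tet3-/- EpiLC. Krt18 held a larger share in XY EpiLC, 60.9% against 50.8% in XX EpiLC, and the Krt8 share was close in both, 32.4% and 31.8%.

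Filaments need type I and type II chains in equal number, and the RNA sums can be set side by side on the per-length TPM scale. The type I sum (Krt18 and Krt19) was 2.06 ± 0.0619 times the type II sum (Krt8 and Krt7) in XX EpiLC and 2.02 ± 0.0949 times in XY EpiLC (SD, n = 3 each). The 6 wild-type EpiLC libraries lay between 1.94 and 2.12, even though their pools differ severalfold in size and in Krt19 share. Tet3-/- EpiLC #1 and #4 had ratios of 2.20 and 2.03, and #3 had 1.34. The Krt18 to Krt8 ratio alone was 1.60 ± 0.0390 in XX EpiLC and 1.88 ± 0.0948 in XY EpiLC (SD, n = 3 each), and 1.85, 0.711 and 1.52 in Tet3-/- #1, #3 and #4.

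In mESC the pair was not held in proportion. Krt18 to Krt8 was 2.19, 0.295 and 2.18 in XX mESC 1 to 3, 0.231, 1.02 and 0.206 in XY, and 1.23, 0.587, 0.351 and 1.09 in Tet3-/- #1 to #4. Of the 3 XX mESC libraries, the one highest in Krt8 was the lowest in Krt18, and of the 3 XY mESC libraries the one lowest in Krt8 was the highest in Krt18. XX mESC 2 and Tet3-/- mESC #2 and #3, which had the lowest ratios of the LF2 mESC, were also the lowest of them on the first principal component of other genes. The part of that difference between libraries in these ratios was not tested. The log2 type I to type II ratio of Tet3-/- minus XX was -0.53 in mESC (exact 2-sided permutation test, p = 0.629, smallest possible 0.0571) and -0.18 in EpiLC (exact permutation test, p = 0.8, smallest possible 0.1), both 0.8 after adjustment over the 2 tests. The mESC value rested on single libraries, at -1.46 without XX mESC 2, -0.06 without XX mESC 1, -0.08 without XX mESC 3 and -0.19 without Tet3-/- mESC #3. Without Tet3-/- #3 the EpiLC value was 0.04, and without #1 it was -0.31.

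**Figure D2:**
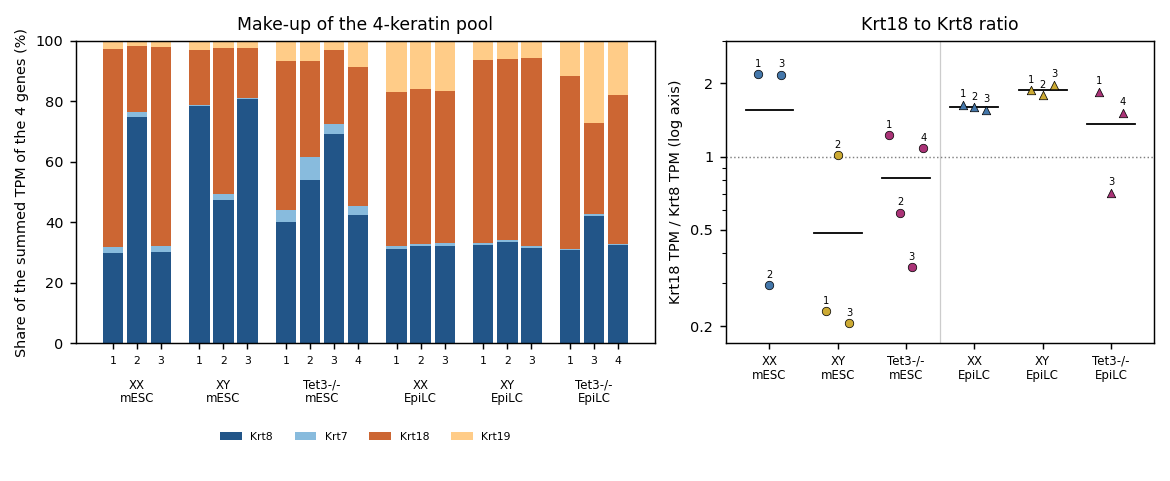
Left, the share (%) of the summed TPM of the 4 genes that each gene holds, stacked per library. Right, the ratio of Krt18 to Krt8 TPM (log axis) per library, with the library's replicate number. Krt19 holds 16.5% of the pool on average in XX EpiLC and 5.97% in XY EpiLC, and the ratio spans 0.206 to 2.19 in mESC but 1.56 to 1.98 in the wild-type EpiLC.

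Whether loss of Tet3 changed these keratins was tested against XX cells of the same line, with limma across all genes. In mESC 0 of 4 members were called, against 0.601% of all genes, and in EpiLC 0 of 4, against 1.08%. At an unadjusted p under 0.05 there was 1 of 4 in each state, against 9.08% and 9.61% of genes. In the comparison of the Tet3-/- transition with the XX transition 0 of 4 passed, against 0.174%, with 1 of 4 at an unadjusted p under 0.05 against 7.69%. These comparisons share their XX and Tet3-/- libraries. The medians over the 4 genes were -0.18, -0.03 and 0.24, beside 0.19, -0.07 and -0.28 over all tested genes.

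In mESC the Tet3-/- minus XX difference was -1.08 for Krt18 (95% interval -2.10 to -0.06, limma adjusted p = 0.503). The other intervals spanned 0, with -0.53 for Krt8 (-1.21 to 0.16), 0.17 for Krt7 (-0.26 to 0.59) and 0.34 for Krt19 (-0.45 to 1.13), and limma's adjusted p between 0.708 and 0.812. A pair of these values depended on what was left out or how it was scaled. Without XX mESC 2, the low Krt18 library, Krt18 was at -1.76 and was called (limma, adjusted p = 0.0408). With median-of-ratios scaling Krt8 was at -0.78 and was called lower (limma, adjusted p = 0.0119), as were 1.42% of all genes.

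In EpiLC the Krt7 difference was -0.70 (95% interval -1.15 to -0.25, limma adjusted p = 0.168), and its mean was 2.46 TPM in Tet3-/- against 4.54 in XX, with all 3 mutant libraries below all 3 XX libraries. Such a separation toward lower values was seen for 12.4% of all genes. Without Tet3-/- #3, Krt7 was at -0.91 and was called (limma, adjusted p = 0.0344). For the other 3 the intervals spanned 0, with 0.15 for Krt8 (-0.58 to 0.89), -0.19 for Krt18 (-1.28 to 0.90) and 0.13 for Krt19 (-0.71 to 0.97), each at an adjusted p of 1. These intervals rest on a spread estimated over all 6 groups. For Krt19 the Tet3-/- EpiLC libraries ran from 52.6 to 229 TPM and those of XX from 75.7 to 84.9. Its interval may therefore be too narrow for this comparison. Krt8 and Krt19 turned on 1 library: without Tet3-/- #3 they were at -0.38 and -0.56, uncalled.

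The difference of transitions, Tet3-/- minus XX, was -0.87 for Krt7 (95% interval -1.49 to -0.25, limma adjusted p = 0.417). It was 0.68 for Krt8 (-0.33 to 1.68), 0.89 for Krt18 (-0.60 to 2.38) and -0.21 for Krt19 (-1.36 to 0.95), at limma's adjusted p of 0.790, 0.802 and 0.888. With intervals this wide, the lack of a call does not show that the transitions were alike. Krt8 was at 0.15 without Tet3-/- EpiLC #3 and 1.07 without #4, and Krt18 at 1.57 without XX mESC 2 and 0.45 without XX mESC 3, all uncalled. The Krt19 value changed sign, to 0.05, with median-of-ratios scaling, and also without Tet3-/- EpiLC #1 or #4.

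**Figure D3:**
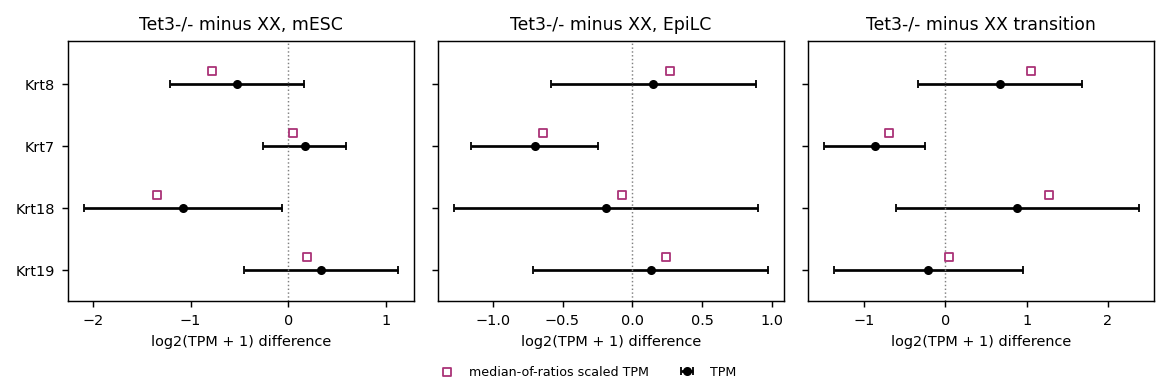
Tet3-/- minus XX on the log2(TPM + 1) scale for the 4 genes in mESC, in EpiLC and as the difference of transitions. Filled points are limma estimates with 95% intervals and open squares are the values after median-of-ratios scaling. None of the filled points is called, and the Krt7 interval in EpiLC (-1.15 to -0.25) and the Krt18 interval in mESC (-2.10 to -0.06) lie below 0.

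Tet3-/- EpiLC #3 needs its own description, since it carries the highest Krt8 and Krt19 of the series. After median-of-ratios scaling Krt19 was 69.3, 171 and 81.9 in #1, #3 and #4, against 79.8 to 87.5 in XX EpiLC, and Krt8 was 184, 264 and 149. Krt18 went the other way, with 340.0, 188 and 226. The library was thus high in Krt8 and Krt19 and low in Krt18 relative to its own other genes. Beside this, summed TPM of trophectoderm markers was 9.03, 34.9 and 7.88 in #1, #3 and #4, of surface ectoderm markers 3.84, 12.0 and 4.85, of primitive endoderm markers 202, 269.5 and 148, and of naive pluripotency genes 35.8, 101 and 39.2. The sum of formative genes was 72.9, 211 and 70.0. These sums are not scaled, and the size factor of #3 raises its TPM over most genes. The part of any of these in its keratin values was not tested.

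Of the 50 other keratin genes, 4 passed the filter on low values (Krt10, Krt15, Krt17 and Krt42), and 2 of these were called higher in the XX and in the Tet3-/- transition and 0 in XY. Krt15, Krt17 and Krt42 lie within 114217 bases of Krt19. These genes passed the filter only through XX EpiLC, since too few libraries of other groups reached 1 TPM. Such an entry favours higher values in XX EpiLC, which limits every test below of XX EpiLC against another group. Krt17, a type I keratin of hair follicles and stressed skin, lies 107552 bases from Krt19 and was at 7.83, 7.69 and 8.55 TPM in XX EpiLC, 0.252, 0.181 and 0.0393 in XY EpiLC and 0.901, 2.31 and 1.73 in Tet3-/- EpiLC, with at most 0.269 in any mESC library. The 3 EpiLC groups do not overlap. Krt17 rose in the XX transition by 3.05 ± 0.17 (SE) and in Tet3-/- by 1.35 ± 0.16, and was at 0.17 in XY (limma, adjusted p = 2.18e-10, 1.79e-06 and 0.409). Of the other keratins it had the lowest adjusted p with Tet3: -1.80 ± 0.17 in Tet3-/- against XX EpiLC (limma, adjusted p = 2.25e-05) and -1.70 between the transitions.

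Leaving out each library in turn kept the Krt17 difference in EpiLC between -1.98 and -1.58, called each time, and a fit of only the groups compared gave an adjusted p of 0.0869. The Krt17 difference between the transitions was as large but no longer called with a pseudocount of 0.1 (-1.78, limma adjusted p = 0.456). Sequence that Krt17 shares with its neighbours is a limit: 241 of its 1521 words of 31 bases also occur in transcripts of other genes, 180 of them in Krt14, which was at 0.985, 0.852 and 1.13 TPM in XX EpiLC and 0.0642, 0.853 and 0.171 in Tet3-/- EpiLC.

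Krt15, a keratin of basal and stem-like skin cells, was at 2.06, 2.79 and 2.57 TPM in XX EpiLC, 0.253, 0.164 and 0.124 in XY EpiLC and 0.822, 1.60 and 0.976 in Tet3-/- EpiLC. It fell by 0.72 ± 0.14 in Tet3-/- against XX EpiLC (limma, adjusted p = 0.0157), a call that was kept in 2 of 6 fits that each left out a library, with adjusted p from 0.00124 to 0.121. The call was also lost with a pseudocount of 0.1 and in a fit of only the groups compared (limma, adjusted p = 0.267 and 0.281). Krt42 lay at 2.60, 3.13 and 3.17 TPM in XX EpiLC, at 0.0595 or less in XY EpiLC and at 0.122, 0.483 and 0.254 in Tet3-/- EpiLC (Tet3-/- against XX -1.63, limma adjusted p = 0.0752, and 0.028 with the scaling), and 1 mESC library, XX 2, held 4.93. XX EpiLC exceeded XY EpiLC for Krt17 by 2.97, for Krt42 by 1.92 and for Krt15 by 1.55. All of them entered the tests only through XX EpiLC, so no test is read from these differences. Krt10, of differentiated skin, stayed between 0.41 and 1.66 TPM in all libraries and was called in none of these comparisons.

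**Figure D4:**
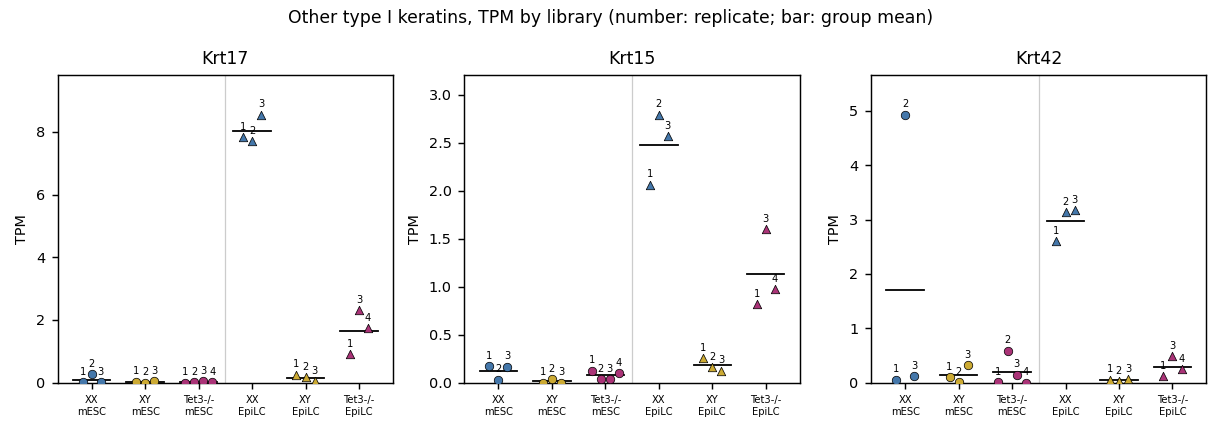
TPM of Krt17, Krt15 and Krt42, the tested neighbours of Krt19 in the type I cluster, in each library, with replicate numbers and a bar at the group mean. XX EpiLC lie at 7.69 to 8.55 TPM for Krt17, Tet3-/- EpiLC at 0.901 to 2.31 and XY EpiLC at 0.252 or less.

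Keratin filaments are anchored at desmosomes and hemidesmosomes, and 20 genes of these junctions and of keratin linkers were followed, 19 of them above the filter. In XX 14 rose and 1 fell, in XY 13 rose and 0 fell, and in Tet3-/- 12 rose and 2 fell, with medians of 1.50, 0.94 and 1.07 beside 0.14, 0.54 and -0.13 over all tested genes. With median-of-ratios scaling the counts were 14 and 4, 10 and 2, and 13 and 2. Pkp2, the plakophilin that ties desmosomal cadherins to desmoplakin, had means of 2.33, 4.31 and 4.63 TPM in XX, XY and Tet3-/- mESC and 18.3, 17.8 and 23.6 in EpiLC. Dsp, desmoplakin itself, the plaque protein that binds keratins, rose by 2.40, 1.59 and 1.62 in the XX, XY and mutant transitions (limma, adjusted p = 2.31e-05, 0.000905 and 0.000563). Perp, a desmosomal membrane protein, rose by 2.28, 2.15 and 2.81, and was higher in XX than in XY EpiLC, 69.3 against 22.2 TPM (log2 difference 1.60, limma adjusted p = 0.000353).

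Dsc2, a desmosomal cadherin, rose as well in all 3, by 1.70, 1.93 and 1.41, whereas Dsg2, the other cadherin on the list, was not called in any on the TPM scale (-0.44, 0.07 and -0.43). With the scaling Dsg2 was called lower in XX and XY (-0.65 and -0.56). Pof1b, an actin-binding protein of epithelial junctions, fell by 2.98 in XX and by 2.80 in Tet3-/- (limma, adjusted p = 0.000136 and 0.000104), from 10.1 and 7.39 TPM to 0.09 and 0.07. Itgb4, the hemidesmosome integrin, rose by 1.55 in XX and 1.07 in Tet3-/- and was at 0.16 in XY (limma, adjusted p = 6.29e-05, 0.000998 and 0.587). Between Tet3-/- and XX cells 0 of the 19 were called in mESC or in EpiLC.

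A list of 21 epithelial genes, all above the filter, moved alike: 19 rose in XX and 0 fell, 17 rose in XY and 1 fell, and 18 rose in Tet3-/- and 1 fell, with medians of 1.90, 1.41 and 1.46. With the scaling the counts were 19 and 1, 12 and 2, and 19 and 1. The tight junction gene Cldn6 rose by 4.80, 3.94 and 4.67, from 2.97, 4.06 and 2.65 TPM to 102, 72.7 and 90.3. Cldn7, another claudin, rose by 3.85, 4.66 and 3.83. Epcam, an epithelial adhesion protein, rose by 2.97, 2.49 and 2.74, and Cdh1, E-cadherin, which naive cells already make, rose by 1.03, 1.41 and 0.95. Elf3, an epithelial transcription factor, fell in XY by 1.97 and in Tet3-/- by 1.39 and was at -0.92 in XX (limma, adjusted p = 0.0609), where it was called with the scaling (-1.12).

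Cldn3, another claudin, was the one gene of the list called between Tet3-/- and XX, lower in the mutant EpiLC by 1.33 ± 0.20 (limma, adjusted p = 0.00185), at 5.66 TPM against 15.5 in XX. It was not called in a fit of only the groups compared (limma, adjusted p = 0.123). In XX against XY EpiLC 5 were higher and 3 lower (11 and 0 with the scaling). On the desmosome list the same comparison gave 4 higher and 2 lower (13 and 0 with the scaling). Of all tested genes it called 5.23% higher and 42% lower (17.2% and 16.6% with the scaling).

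**Figure D5:**
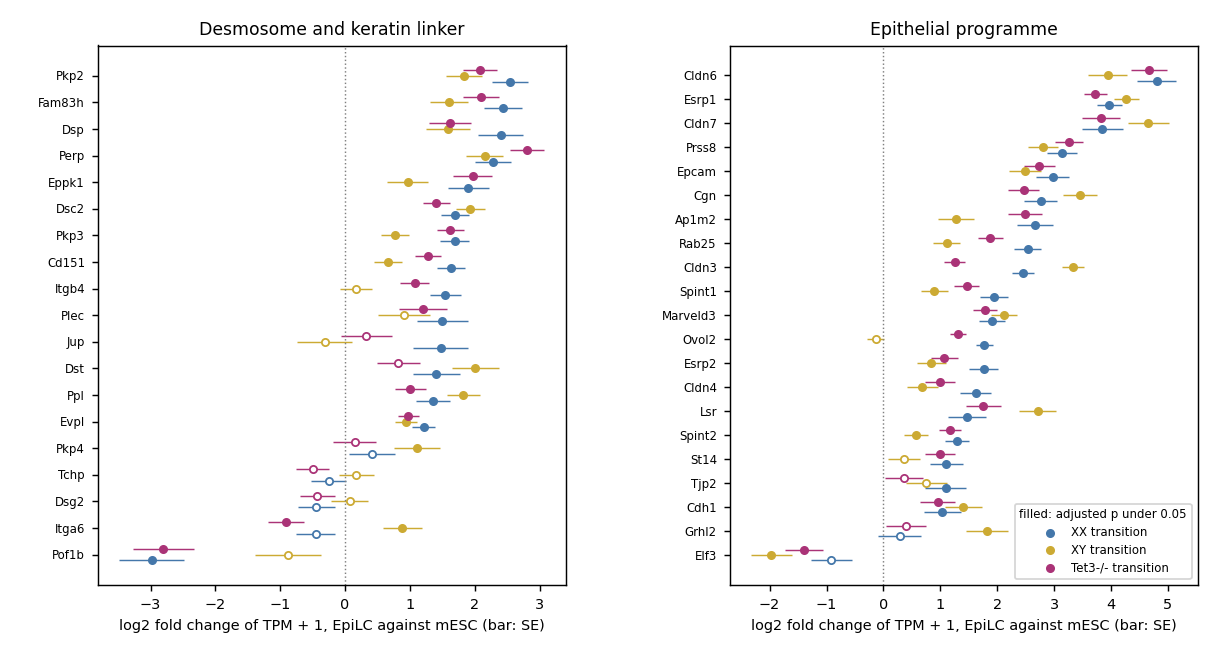
Log2 differences on the log2(TPM + 1) scale (EpiLC minus mESC, with SE) of the tested desmosome and keratin linker genes and of the epithelial genes in the XX, XY and Tet3-/- transitions. Filled points have an adjusted p under 0.05. Most points lie to the right of 0, and Pof1b is the lowest, at -2.98 in XX.

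Other intermediate filament genes, of which 16 were listed, were mixed. Of these 12 passed the filter, and 7 rose and 1 fell in XX, 5 rose and 2 fell in XY, and 6 rose and 1 fell in Tet3-/-, with medians of 0.73, 0.46 and 0.84 (6 and 1, 5 and 5, and 9 and 1 with the scaling). Nes, nestin, the filament of neural progenitors, rose by 3.72, 3.67 and 3.94. Prph, peripherin of peripheral neurons, rose by 2.89, 1.14 and 2.87, and Sync, a partner of desmin, fell by 2.58, 1.04 and 2.31. Vim, the mesenchymal filament vimentin, was not called in any transition on the TPM scale (with the scaling it was lower in XY, -1.07, and higher in Tet3-/-, 1.14), with means of 16.3, 79.0 and 36.6 TPM in XX, XY and Tet3-/- mESC and 21.7, 52.5 and 98.5 in EpiLC. Lmna, lamin A/C of the nuclear lamina, went opposite ways, at 1.27 in XX and -0.81 in XY (limma, adjusted p = 0.0034 and 0.0351), and was 2.88 higher in XX than in XY EpiLC (limma, adjusted p = 1.57e-06). Its XX transition exceeded its XY transition by 2.08 (limma, adjusted p = 0.0027).

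Since these keratins also mark other cell types, the defining markers of those types were read. Of 13 trophectoderm markers other than Krt7, 7 were under 1 TPM in every EpiLC library, and Elf5, Hand1 and Tpbpa did not pass 0.317, 0.757 and 0.093 TPM in any library. The rest were present in EpiLC. Their highest EpiLC values were 17.4 TPM for Eomes (in Tet3-/-), 7.37 for Tead4, 6.03 for Tfap2c, 2.23 for Ascl2, 2.17 for Gata3 and 1.33 for Cdx2. No marker of any of these lists was at 0 in all EpiLC libraries. The trophectoderm sum was 14.7 to 16.6 TPM in XX EpiLC, 8.72 to 10.6 in XY EpiLC, 7.88 to 34.9 in Tet3-/- EpiLC and 15.5 to 31.5 over mESC libraries, so the XX and XY EpiLC sums lay at the low end of the mESC range or under it. Of 7 tested trophectoderm genes 1 rose and 2 fell in XX, 1 rose and 3 fell in XY, and 2 rose and 2 fell in Tet3-/-. Tfap2c, of trophoblast and germ cells, fell by 2.16 in XX and by 2.42 in Tet3-/-, Cdx2, the trophectoderm regulator, fell by 2.29 in XY, Gata3 rose by 1.06 in XY and Eomes by 1.44 in Tet3-/-. Ascl2, a trophoblast factor, rose by 1.22 in XX and was lower in Tet3-/- than in XX EpiLC by 0.90 (limma, adjusted p = 0.00344, and 0.124 in a fit of only the groups compared). Its highest value was in XX EpiLC, and its means were 0.316, 0.656 and 0.448 TPM in XX mESC, XY mESC and XY EpiLC. The filter on low values may thus favour XX EpiLC in both Ascl2 tests.

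Primitive endoderm, which also makes Krt8, Krt18 and Krt19, was marked by 16 genes, whose sum was 49.3 to 107 TPM in mESC and 174 to 212 in XX, 179 to 228 in XY and 148 to 269.5 in Tet3-/- EpiLC. This sum was higher in every EpiLC library than in any mESC library, and its XX and XY EpiLC ranges overlap. Its largest parts in XY EpiLC were Sparc, Lamb1 and Lamc1, with means of 70.1, 60.6 and 44.6 TPM. Whether such cells contribute to the keratin values was not tested. Lamb1, a laminin chain, rose by 3.27, 4.84 and 2.45 in XX, XY and Tet3-/-, and Lama1, its partner chain in the basement membrane, fell by 3.04, 1.59 and 2.96. Among the transcription factors on this list Sox7 did not pass 0.252 TPM in any library, while Gata4 reached 1.34, Gata6 3.28, Sox17 3.37 and Foxa2 5.27. Foxa2 rose by 2.20 in XY (limma, adjusted p = 0.000279). The yolk sac gene Ttr did not pass 0.057 TPM, and 4 of the 9 tested genes rose in XX with 2 fallen (7 and 1 in XY, 4 and 1 in Tet3-/-).

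The surface ectoderm sum (10 genes, Krt15 and Krt17 among them) was 13.8 to 15.5 TPM in XX EpiLC, 1.46 to 2.28 in XY EpiLC, 3.84 to 12.0 in Tet3-/- EpiLC and 4.55 to 9.76 in mESC, but most of it in XX EpiLC was keratins of the type I cluster. Without its keratins the sum (6 genes) was 2.87 to 3.27 in XX EpiLC, 1.25 to 1.69 in XY EpiLC, 1.92 to 6.98 in Tet3-/- EpiLC and 4.51 to 9.72 over mESC. Its basal regulator Trp63 stayed at or below 0.398 TPM and Krt5 at or below 0.233. Of its 4 tested genes 2 rose and 2 fell in XX and in Tet3-/-, and 0 rose and 2 fell in XY. Grhl3, an epidermal regulator, fell by 0.95, 1.49 and 0.89.

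Mesothelium (8 genes) summed to 9.79 to 13.1 TPM in XX EpiLC, 10.4 to 12.4 in XY and 3.45 to 7.66 in Tet3-/-. In mESC the sum was 0.205 to 0.516 TPM in XY and 0.479 to 0.969 in Tet3-/-, below every EpiLC library of the same genotype, and 1.72 to 17.2 in XX, where the highest library was above every EpiLC library. Muc16 never passed 0.030. Of the 3 tested, 1 rose in XX (Lrrn4, by 0.58) and 2 each in XY and Tet3-/-. Its Msln, mesothelin, averaged 9.44 TPM in XX EpiLC, 0.07 in XY and 0.86 in Tet3-/-, and was lower in Tet3-/- than in XX by 2.49 (limma, adjusted p = 0.0135). That call was lost without XX EpiLC 2 or XX EpiLC 3 (limma, adjusted p = 0.0745 and 0.0851). Lrrn4, another mesothelial surface protein, rose by 3.20 in XY and by 1.22 in Tet3-/-.

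Fibroblast markers (10 genes) summed to 6.92 to 8.90 TPM in XX, 14.5 to 16.6 in XY and 4.44 to 18.2 in Tet3-/- EpiLC. Over mESC libraries the sum was 1.47 to 3.87, below every EpiLC library, so it was higher in EpiLC as the keratins were. Col1a1 and Col3a1 stayed at or below 0.743 and 0.247 TPM in every library, and 7 of the 10 were under 1 TPM in every EpiLC library. The rest reached 13.3 TPM (Col5a1, in Tet3-/- EpiLC), 8.64 (Thy1, in XY EpiLC) and 1.76 (Fbn1, in XY EpiLC). All 3 tested fibroblast genes rose in XX and in XY and 2 in Tet3-/-, with Thy1 at 2.33 in XY and Col5a1 at 1.66 in Tet3-/-. Whether such cells contribute to the keratin values was not tested.

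The state of the cells was read from pluripotency genes. Of 13 naive genes 12 fell and 0 rose in each transition, and Klf4, a naive transcription factor, fell by 4.31 in XX, fell by 4.30 in XY and fell by 4.47 in Tet3-/-. Of 12 formative genes 8 rose and 2 fell in XX, 11 rose and 1 fell in XY, and 8 rose and 1 fell in Tet3-/-, with medians of 1.17, 3.15 and 1.79. Of 5 general pluripotency genes 1 rose and 1 fell in XX and in Tet3-/-, and 3 rose and 1 fell in XY, with Sox2 falling in all 3. Lin28a, an RNA-binding protein, rose by 4.81, 4.61 and 4.71. Fgf5, the classic epiblast gene, rose by 1.77 in XX and 5.67 in XY, and Dnmt3b, a de novo methyltransferase, by 2.17 and 3.75. XX EpiLC were called lower than XY EpiLC for 11 of 12 formative genes (11 with the scaling). They were higher for 9 of 13 naive genes, with 1 called lower (11 and 0 with the scaling). Of all tested genes 42% were called lower and 5.23% higher in XX (16.6% and 17.2% with the scaling). A link between these genes and the keratin levels was not tested. Esrrb, a naive factor, fell by 2.84 in XX against 5.42 in XY.

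Between Tet3-/- and XX EpiLC, Esrrb (-1.70), Tcl1 (-1.88) and Fgf4 (-1.21) of the naive genes and Sox2 (-1.11) were lower and Sox3 (0.82) was higher in the mutant (limma, adjusted p = 0.0168, 0.0394, 0.0365, 0.0285 and 0.00452). All 5 were uncalled in a fit of only the groups compared (limma, adjusted p from 0.109 to 0.248). On the TPM scale 0 genes of any of these lists were called between Tet3-/- and XX in mESC, and between the transitions only Krt17 was.

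The genes whose pattern was nearest to each keratin, by Pearson's r of log2(TPM + 1) over the 19 libraries, are given as a description, since all share the step between the states. For Krt19 these were Gbp2 and Gbp2b, interferon-induced guanylate-binding proteins, Coro2a and Nnat (r = 0.99 each) and Fam89a (0.98). Gbp2 lay at 0 to 0.0996 TPM in mESC and 2.33 to 100.2 in EpiLC. Krt8 was nearest to Vgll3 (0.99), a cofactor of TEAD transcription factors, then to Plaur, the urokinase receptor, S100a10, Gbp2 and Cpz (0.98 each). Krt18 was nearest to Cnn2, calponin 2 (0.98), then Fam114a1, Mmp2, Jun and Clu (0.97 each). Krt7 was nearest to Anxa3 and Pdzk1ip1 (0.95 each), then Gm26532 and Wnt7b (0.94 each). The list for Krt19 shares 1 gene, Gbp2, with that for Krt8.

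Reads from near copies could be shared out among genes, so words of 31 bases were compared. No word of 31 bases was shared between any of the 4 genes. Krt8 shared 623 of 1928 words with transcripts of other genes, 621 of them with its pseudogene Krt8-ps, which was at 0.10 TPM or less in every library, and Krt18 shared 160 of 1407, most of them with pseudogenes at 0.033 TPM or less. Krt19 shared 8 of 1546 and Krt7 110 of 4063. How the deposited values divide reads among such copies is not known.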

How the data were processed

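The 19 libraries were strand-specific and freed of rRNA, per the labels' protocols. The authors deposited TPM for 140948 transcripts, and each column sums to 1000000. FastQC 0.11.7, Trimmomatic 0.35, Salmon 1.1.0 and GRCm38 are named in the submitters' processing notes, without a role. TPM keeps no depth, so precision rests on the spread of the libraries alone.

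Transcripts were summed per gene with GENCODE M21 (139357 matched with their version, 495 without, 1096 unmatched holding 0.045% to 0.215% of TPM), which gave 54119 genes. Genes that reached 1 TPM in 3 or more libraries (14972, all 4 keratins among them) were fitted as log2(TPM + 1) with limma 3.58.1 (R 4.3.3; lmFit, contrasts.fit, eBayes with trend), 6 groups, 9 contrasts, and Benjamini-Hochberg adjustment within a contrast. The type I to type II ratio was compared by exact permutation. Scripts were checked on simulated data. Tables and figures used Python 3.11.15, pandas 2.3.3 and matplotlib 3.10.9.

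The 4 genes and all gene lists were chosen with earlier results of these data known. Named from each list and from the other tested keratins were the called genes highest and lowest in the 3 transitions, genes called in Tet3-/- against XX, and keratins with a group mean of at least 1 TPM. Nearest patterns were the 5 highest correlations among tested genes with a group mean of at least 5 TPM. Dsp, Dsc2, Dsg2, Itgb4, Epcam, Cdh1, Prph, Vim, Lmna, Krt14 and defining markers were named after their values were seen. An item of the epithelial list is not reported here and is left out of its counts.

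Alternatives were pseudocount 0.1, no filter, TPM of at least 5, median-of-ratios scaling, rescaling over nuclear protein-coding genes, eBayes without trend, only the groups compared, a replicate block, and each library left out. Leaving out 3 LF2 mESC libraries together (XX 2, Tet3-/- 2 and 3) was added after seeing the data.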

Additional observations from a re-analysis of the deposited data

Results flagged for a closer look

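By a test of the difference itself in limma, the step to EpiLC was called different between genotypes for Krt17. It was 1.70 log2 units smaller in Tet3-/- than in XX cells (-1.70), and 2.88 larger in XX than in XY cells. The call between Tet3-/- and XX was lost with a pseudocount of 0.1 and with a replicate block (limma, adjusted p = 0.456 and 0.0721). For Krt15 the XX transition exceeded the XY transition by 1.41. Krt15 and Krt17 passed the filter only through XX EpiLC, so these tests start from genes that are high in that group. That entry favours such differences, which are therefore given as a description. The differences between the XX and XY transitions of Krt7, Krt8, Krt18 and Krt19 were part of how these genes were chosen. They are described above, with calls counted for scale only. Single libraries far from their group were looked for only in Tet3-/- mESC, the one group of 4, where 10 checks found none. The groups of 3, which hold XX mESC 2 and Tet3-/- EpiLC #3, were not covered.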

How the results depend on the processing

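Depth is unknown, and each group holds 3 or 4 libraries. Of the members' counts of calls, the count went from 0 to 1 in Tet3-/- against XX mESC with median-of-ratios scaling (1, Krt8) and over single left-out libraries (0 to 1), in Tet3-/- against XX EpiLC over left-out libraries (0 to 1), and in XX against XY mESC over left-out libraries (0 to 1) and without the 3 LF2 mESC libraries together (1, Krt18). It went from 4 to 3 in the XY transition (Krt7) with median-of-ratios or protein-coding scaling and without XY mESC 1, XY mESC 3 or XY EpiLC 1, and from 3 to 2 in the XX minus XY difference with a pseudocount of 0.1. The minimum of 5 TPM left Krt7 untested. The Tet3-/- minus XX difference of transitions of Krt19 (-0.21) was 0.05 (0.0523) with the scaling and ran from -0.90 to 0.15 over left-out libraries (0.150 without Tet3-/- EpiLC #1, 0.133 without #4). In Tet3-/- against XX EpiLC, left-out libraries gave -0.38 to 0.54 for Krt8, -0.56 to 0.49 for Krt19 and -0.33 to 0.07 (0.066) for Krt18, and -0.31 to 0.04 (0.0389) for the type I to type II ratio. The cause was not tested.

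Over all genes, calls ranged from 2 (only the groups compared) to 477 (scaling) around 90 in Tet3-/- against XX mESC, from 11 to 817 around 161 in EpiLC, and from 1 (replicate block) to 112 (without the 3 LF2 mESC libraries) around 26 in the difference of transitions. Around 2121 in XX against XY mESC they ranged from 800 to 4679, around 7074 in EpiLC from 4068 to 10900, and around 2397 in the difference from 1124 to 3548. The transitions ranged from 2682 to 7542 (XX, 4689), 4748 to 10638 (XY, 7561) and 3101 to 7842 (Tet3-/-, 5258).

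Replicate numbers are shared between groups, but 8 of 20 same-number pairs of libraries deviated together (r above 0.1, range -0.44 to 0.52) and in 10 of 22 comparisons a library correlated best with its own number, so the numbers were not taken as pairs. A replicate block changed no call of a member (Krt7 in Tet3-/- against XX EpiLC -0.60, Krt18 in mESC -1.11). It ended the calls of Krt15 (-0.71), Tcl1 and Fgf4 in Tet3-/- against XX EpiLC and of Krt17 between the transitions (-1.71).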
